A study of Arabidopsis thaliana with 12 samples.

Results

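The nuclear genes followed here encode parts or partners of the chloroplast NDH complex: NdhS (AT4G23890), NdhN (AT5G58260) and PIFI (AT3G15840). They were taken from the probes that the platform annotation pairs with exactly 1 gene, and each of the 3 had 1 such probe, among 691 genes so measured and 3439 probes in all. The plants were wild-type Arabidopsis thaliana, ecotype Wassilevskija, either kept for 3 h in MS with 60 mM sucrose, called the sucrose arrays, or given water, for which the labels state no time. Total RNA was measured on 6 arrays for each group, with the numbers 1 to 6 used in both. The labels name no tissue or plant age, and no group had MS alone or sucrose alone, so that effects of MS, sucrose and time cannot be told apart. Whether arrays of 1 group stem from different plants is not stated, and each p-value therefore rests on a spread that could be purely technical.

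The NDH complex sits in the thylakoid membrane and resembles the respiratory complex I of mitochondria. It passes electrons from reduced ferredoxin back to the plastoquinone pool and thereby takes part in cyclic electron flow around photosystem I and in chlororespiration. Its subunits are encoded partly in the plastid and partly in the nucleus. NdhS is a nuclear-encoded subunit that helps the complex take electrons from ferredoxin, and NdhN is a nuclear-encoded subunit of the arm that reaches into the stroma. PIFI is not a subunit but a nuclear-encoded chloroplast protein without which the rise in chlorophyll fluorescence after illumination, a sign of NDH activity, is lost.

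PIFI and NdhS did not move together, and no change could be measured for NdhN. PIFI was called higher on the sucrose arrays under all 4 scalings compared (quantile, cyclic loess, median centring and none), NdhS was lower in sign under all 4 but passed the test under only 3, and NdhN was at or near 0 in both groups. Depending on the scaling, 16.2% to 53.7% of all probes were called higher and 6.6% to 30.2% lower. The share of probes called the same way under all 4 was not counted. The ratio of PIFI to NdhS on the same array was 4.05 times as high with sucrose as with water under a constant scaling of each array, 2.27 times after quantile normalization and 2.38 times with cyclic loess. Each array gave 1 intensity per probe, on a linear scale that ended at 100. The median of all probes was 2.14 times as high on the sucrose arrays (log2 medians, mean difference 1.10, two-sided exact permutation test, p = 0.00216, the lowest value possible with 924 splits), so the size of a single gene's difference depends on the scaling, and both forms are given. The summed intensities lay much closer, at 3325 to 3461 with sucrose and 3172 to 3296 with water, and every array had the same top value. The distributions thus differed in shape, and the ratio of the medians does not hold for bright probes. Between 15.8% and 18.4% of the probes of an array lay at or under 0.0531, the floor used here, set at percentile 5 of all intensities above 0 once the arrays had been brought to 1 median.

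PIFI, the ancillary factor, had deposited intensities on the sucrose arrays with a lowest value of 0.965, a median of 1.20 and a highest of 1.23. On the water arrays its lowest value was 0.343, its median 0.412 and its highest 0.42. No water array reached the lowest sucrose array, a separation that 37.2% of all probes showed in this direction in the deposited values and 11.8% after quantile normalization, where PIFI kept it. With median centring the groups overlapped, at scaled intensities of 0.679 to 1.04 with sucrose and 0.559 to 0.686 with water. In both groups array 4 had the lowest deposited value. In RNA of whole samples, a change in the cells that express a gene and a change in its RNA per cell cannot be told apart, here and for the other genes. PIFI averaged 1.15 ± 0.099 with sucrose and 0.402 ± 0.0294 with water (SD, n = 6 each). After quantile normalization, which gives every array the same distribution, the log2 difference was 0.90 ± 0.07 (SE, 95% interval 0.74 to 1.06, limma adjusted p = 5.9e-06), a 1.87-fold rise. Among all probes 41.8% were called at an adjusted p of 0.05 and 20.5% were called higher. The difference was 1.52 with the values as deposited (adjusted p = 7e-08), 0.99 with cyclic loess (7.9e-07) and 0.42 with median centring (0.012), scalings under which 53.7%, 22.8% and 16.2% of all probes were called higher. The call was lost within array numbers 3 and 4 alone, at 0.97 (adjusted p = 0.098, 2 arrays against 2).

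NdhS, the subunit on the ferredoxin side, went the other way in the deposited values. Its sucrose arrays had a lowest value of 3.71, a median of 4.13 and a highest of 4.42, and its water arrays a lowest of 5.07, a median of 5.79 and a highest of 7.11. The groups did not overlap, with every sucrose array below every water array, which was so for 4.33% of all probes. This share, like the others given here, covers probes of every brightness, whereas NdhS lay at the 96.9 percentile or above on each array. No share was taken among probes as bright as NdhS. Array 5 was the highest in both groups. NdhS averaged 4.10 ± 0.314 with sucrose and 5.83 ± 0.744 with water (SD, n = 6 each), so the water mean was 1.42 times the sucrose mean. On the log2 scale the deposited values differed by -0.50 ± 0.08 (SE, limma adjusted p = 3.8e-04), and 6.6% of all probes were called lower on that scale.

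After quantile normalization NdhS did not pass the test. Its log2 difference was -0.29 ± 0.11 (SE, 95% interval -0.53 to -0.04, limma adjusted p = 0.059), where 21.3% of all probes were called lower, and the groups overlapped, with normalized log2 values of 1.93 to 2.39 with sucrose and 2.28 to 2.76 with water. The overlap came from water arrays 1 and 2, at 2.32 and 2.28, whereas the other 4 lay between 2.54 and 2.76. Without water array 1 the adjusted p was 0.039 and without water array 2 it was 0.029. These were the only 2 of the 12 fits with 1 array left out that passed, and in the others the adjusted p reached 0.12. It was 0.26 with numbers 1 and 2, 3 and 4, and 5 and 6 averaged as pairs. With these pairs as a random block it was 0.11, and without numbers 1 and 2 it was 0.020. NdhS was called lower with median centring, at -1.60 (adjusted p = 9.3e-06, against 30.2% of all probes), and with cyclic loess, at -0.26 (0.049, against 21.9%). The quantile-normalized difference varied with the array numbers: it was 0.059 within numbers 1 and 2, -0.31 within 3 and 4 and -0.59 within 5 and 6. Numbers 1 and 2 also had the highest array medians with sucrose, 0.479 and 0.49, against 0.325 to 0.342 on the other 4 sucrose arrays, and the part of these medians in the difference was not tested.

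**Figure D1:**
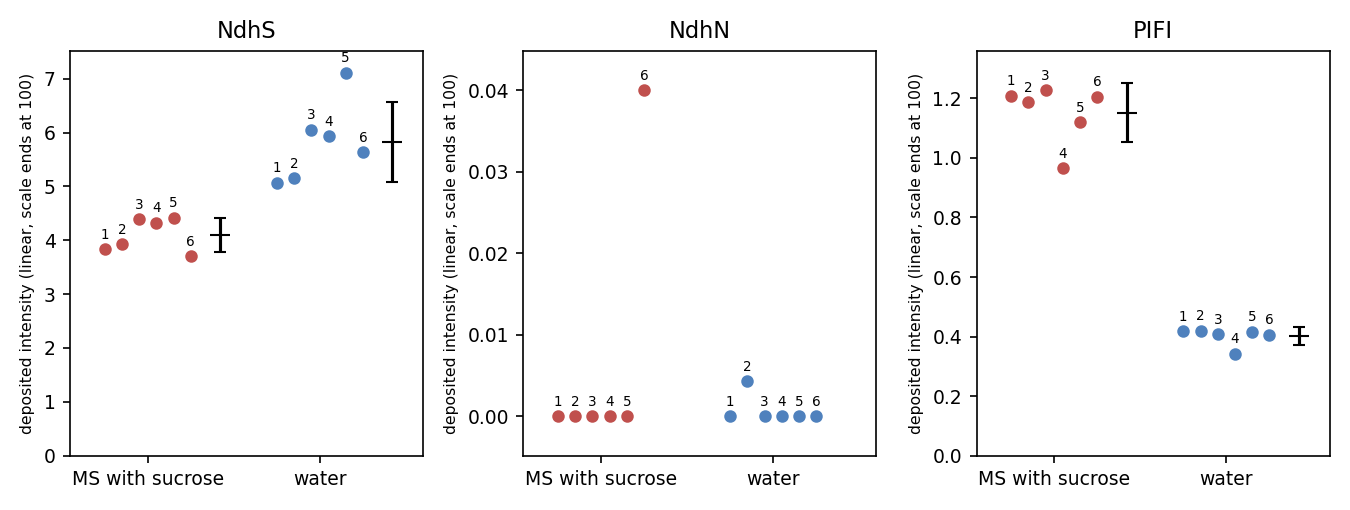
Deposited intensity (linear scale) of NdhS, NdhN and PIFI on each array, sucrose arrays in red on the left of each panel and water arrays in blue on the right, with the array number above each point. Black bars give the mean ± SD of 6 arrays, not drawn for NdhN, which was listed at 0 on most arrays. For PIFI every sucrose array lies above every water array, and for NdhS every sucrose array lies below every water array.

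NdhN, the subunit of the stromal arm, was listed at 0 on 5 of the 6 sucrose arrays and on 5 of the 6 water arrays. The exceptions were sucrose array 6, at 0.04, and water array 2, at 0.00435. Both lay under the floor after scaling, as did 340 probes on all 12 arrays, so no difference can be given for NdhN. A value of 0 on these arrays does not show that the transcript was absent.

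For PIFI and for NdhS, each taken by itself, the ratio of sucrose to water was much the same at every array number. With deposited intensities, the 6 ratios for PIFI had a lowest value of 2.69, a median of 2.86 and a highest of 3.01. For NdhS they had a lowest value of 0.621, a median of 0.727 and a highest of 0.762. The ratio of the array medians spread more widely, with a lowest value of 1.73, a median of 1.98 and a highest of 2.86. The NdhS ratio was under that of the array median for 6 of 6 numbers, as was that of CRR21, a gene taken up below. The share of all probes that stayed on 1 side of the array median was not counted. The PIFI ratio exceeded that of the array median for 5 of 6 numbers, and for number 2 it was 2.83 against 2.86 for the array median. For number 1 it was 2.89 against 2.80, and for numbers 3 to 6 it was 2.69 to 3.01 against 1.73 to 1.99. The rise of PIFI relative to the median probe thus came largely from numbers 3 to 6.

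**Figure D2:**
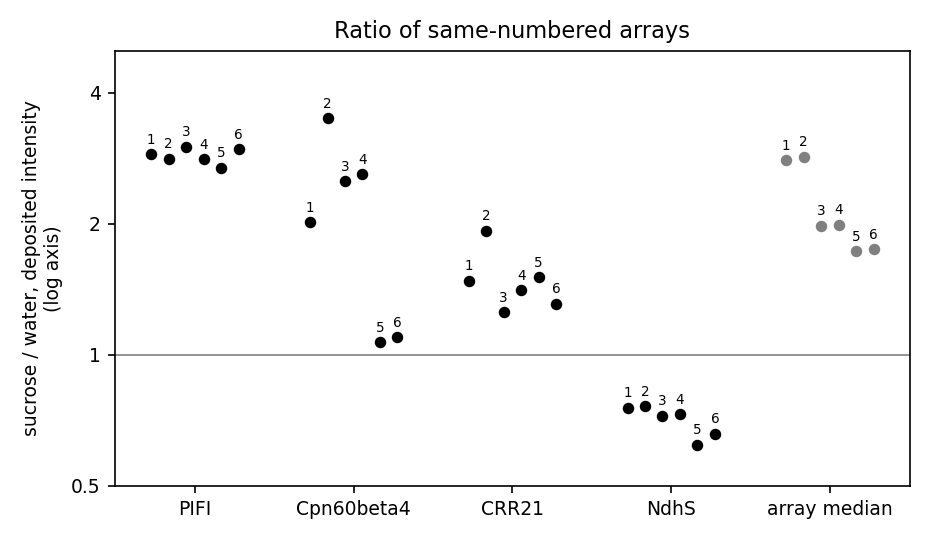
Deposited intensity on a sucrose array over that on the water array of the same number, on a log axis, for the 4 NDH-related genes above the floor on all arrays and for the median of all probes, with the array number above each point. The points for PIFI lie between 2.69 and 3.01 and those for NdhS between 0.621 and 0.762, whereas those for the array median run from 1.73 to 2.86.

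**Figure D3:**
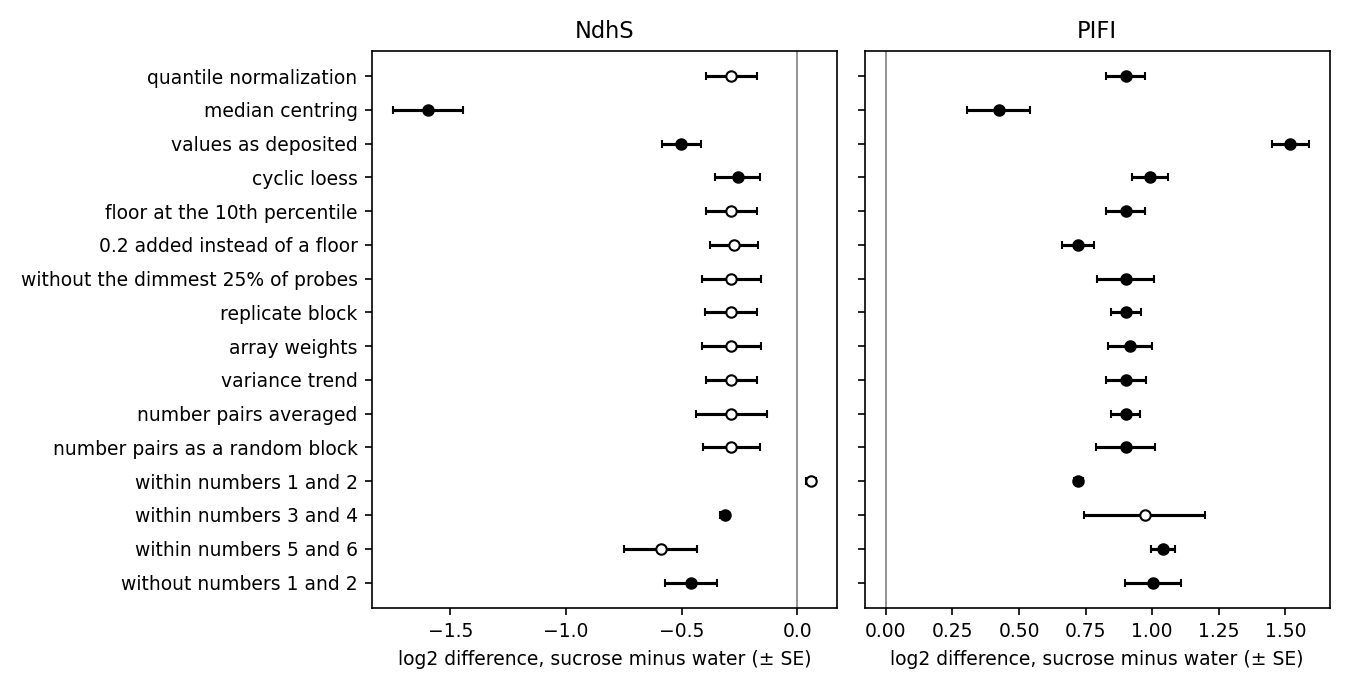
Log2 difference between sucrose and water arrays for NdhS and PIFI under each processing alternative, with the SE from limma as bars. Filled points had an adjusted p under 0.05 and open points did not. PIFI is above 0 throughout, and NdhS is below 0 except within numbers 1 and 2.

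A comparison within the array takes out any constant scaling of that array. The log2 ratio of PIFI to NdhS on the sucrose arrays had a lowest value of -2.17, a median of -1.78 and a highest of -1.62. On the water arrays it had a lowest value of -4.11, a median of -3.84 and a highest of -3.60. The groups did not overlap, as for 67.3% of all probes set against NdhS, in the same direction. Their means were -1.83 ± 0.21 with sucrose and -3.85 ± 0.22 with water (SD, n = 6 each), a difference of 2.02 (two-sided exact permutation test, p = 0.00216, adjusted over 6 such tests 0.0026). The difference was 1.91 within numbers 1 and 2, 2.0 within 3 and 4 and 2.14 within 5 and 6. Quantile normalization and cyclic loess, which scale bright and dim probes differently, gave 1.19 and 1.25. PIFI and NdhS thus changed unequally under every scaling run, and this ratio does not show by how much either changed by itself.

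The place of a probe among the 3439 probes of its array is likewise free of scaling and was used only to follow the same probe between groups. PIFI lay at the 86.1 to 90.2 percentile on the sucrose arrays and at the 72.4 to 77.1 percentile on the water arrays, with no overlap, as for 11.9% of probes in that direction. Its mean place was 12.8 points higher with sucrose (exact permutation test, p = 0.00216, adjusted 0.0026). NdhS lay at the 96.9 to 97.6 percentile with sucrose and at the 97.4 to 98.1 percentile with water, a difference of -0.40 points (exact permutation test, p = 0.0325, adjusted 0.0325) with overlapping groups. It no longer passed without sucrose array 5 or 6 or without water array 3, 4, 5 or 6, where p lay between 0.0541 and 0.0693. With same-numbered arrays taken as pairs it did not pass either, being lower for 4 of 6 numbers (two-sided exact sign-flip test, p = 0.125). PIFI was higher for 6 of 6 (exact sign-flip test, p = 0.0312, the smallest that 64 flips allow).

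The complexes that the NDH complex works beside gave another yardstick. Of the 42 genes listed for photosystems I and II with their antennae, 4 had a probe of their own: PSAN, a subunit of photosystem I, PSBW and PSBY, subunits of photosystem II, and LHB1B2, a light-harvesting protein. After quantile normalization 1 of these 4 was called higher and none lower (in the limma fit, 2 of the 4 were higher and 0 lower at an unadjusted p under 0.05), where 20.5% of all probes were called higher and 21.3% lower, with a median difference of 0.22 against 0 over all probes. With cyclic loess 2 of the 4 were called higher and none lower, as were 22.8% and 21.9% of all probes, and their median was 0.29 against -0.04. With the values as deposited none was called in either direction and their median was 0.03, against 0.68 over all probes. With median centring all 4 were called lower, as were 30.2% of all probes. On the same array, the log2 ratio of NdhS to the mean of these 4 had a lowest value of -1.15, a median of -0.74 and a highest of -0.64 with sucrose, and a lowest value of -0.48, a median of -0.23 and a highest of 0.06 with water. The difference was -0.54 (exact permutation test, p = 0.00216, adjusted 0.0026), with -0.28 within numbers 1 and 2, -0.44 within 3 and 4 and -0.92 within 5 and 6. For PIFI the same ratio ranged from -2.86 to -2.38 with sucrose and from -4.36 to -3.93 with water. Its difference was 1.48 (exact permutation test, p = 0.00216, adjusted 0.0026), but 0.69 after quantile normalization and 0.73 with cyclic loess. On the median-scaled values the groups overlapped for neither ratio. Set against the same 4 genes, 4.31% of all other probes were separated in the direction of NdhS and 46.4% in the direction of PIFI, which was thus the common one.

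**Figure D4:**
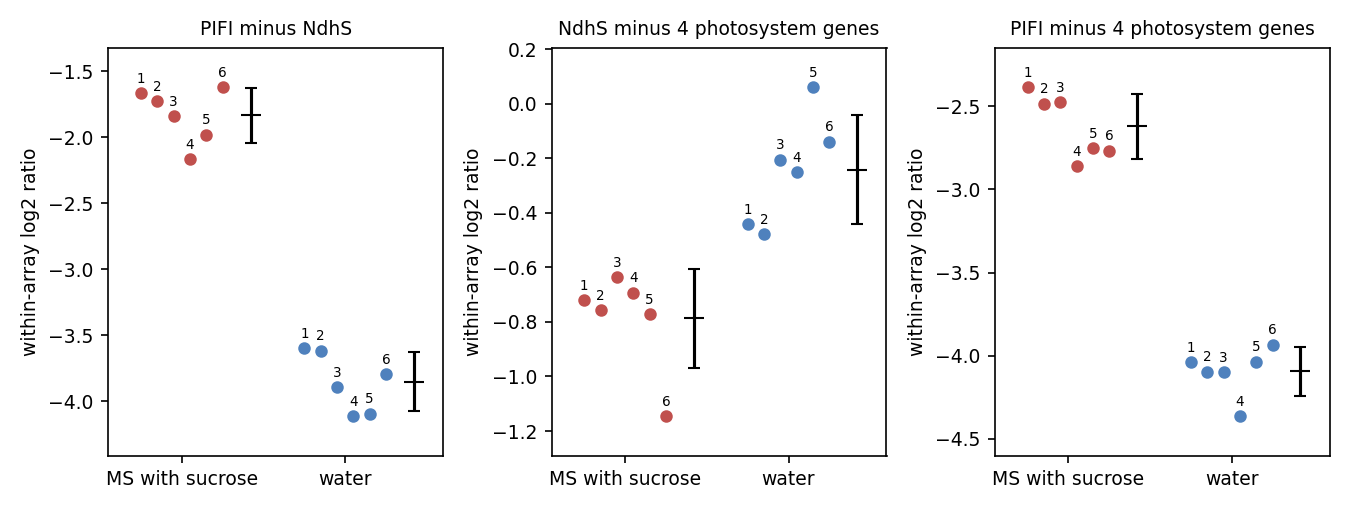
Log2 ratio, on each array, of PIFI to NdhS (left), of NdhS to the mean of PSAN, PSBW, PSBY and LHB1B2 (middle) and of PIFI to that mean (right), from median-scaled intensities, with sucrose arrays in red on the left of each panel and water arrays in blue on the right. Black bars give the mean ± SD of 6 arrays, and the groups do not overlap in any panel, a separation seen in the same direction for 67.3% of other probes against NdhS (left), and for 4.31% (middle) and 46.4% (right) against the 4 photosystem genes.

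The rest of the NDH pathway was thinly covered. Of 46 genes listed as plastid-encoded subunits, nuclear-encoded subunits, or assembly, editing and associated factors, 6 had a probe of their own, and 1 more lay only on a probe shared by several genes. None of the 12 plastid-encoded entries had a probe of its own. Beside the 3 genes above, these were CRR21 (AT5G55740), a pentatricopeptide repeat protein needed to edit the plastid transcript of an NDH subunit, CRR41 (AT1G51100), which helps assemble the stromal arm, and Cpn60beta4 (AT1G26230), a chaperonin subunit needed to fold an NDH subunit. NdhN and CRR41 never exceeded the floor on any of the 12 arrays, and CRR41 was listed at 0 on each. Of the other 4, PIFI was called higher and none was called lower after quantile normalization (at an unadjusted p under 0.05 in limma, 1 was higher, PIFI, and 1 lower, NdhS), with a median difference of -0.20 against 0 over all probes. With 4 genes, such a count is not set apart from the 41.8% of all probes that were called.

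CRR21, the editing factor, had a lowest deposited value of 0.254, a median of 0.625 and a highest of 0.744 on the sucrose arrays. On the water arrays it had a lowest value of 0.181, a median of 0.406 and a highest of 0.471. The groups overlapped, and array 4 was the lowest in both, as it was for PIFI. The quantile-normalized log2 difference was -0.34 ± 0.28 (SE, limma adjusted p = 0.40), and 0.55 with the values as deposited (adjusted p = 0.15). With the array number as a block the difference of -0.34 had an adjusted p of 0.038. Its ratio of sucrose to water was 1.25 to 1.93 and under that of the array median for 6 of 6 numbers. The sign for CRR21 thus turned with the scaling.

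Cpn60beta4, the chaperonin subunit, had a lowest deposited value of 0.173, a median of 0.357 and a highest of 0.708 with sucrose. Its water arrays had a lowest value of 0.134, a median of 0.177 and a highest of 0.21. The groups overlapped through sucrose array 5. Its ratio of sucrose to water was 2.02 to 3.49 for numbers 1 to 4 and 1.07 and 1.10 for numbers 5 and 6. The quantile-normalized difference was -0.11 ± 0.26 (SE, limma adjusted p = 0.83) and turned to 0.045 without sucrose array 5. With the values as deposited Cpn60beta4 was called higher, at 0.96 (adjusted p = 0.019), the direction of 53.7% of all probes.

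Genes with a pattern like that of PIFI or NdhS were sought among the other 487 probes that had 1 gene and lay above the floor on all 12 arrays, by the Pearson correlation of quantile-normalized log2 values over the 12 arrays. These correlations largely carry the difference between the groups, and the arrays share a platform and resemble each other by number, so they are given as a description. The highest 5 for PIFI were AT4G18180 (r = 0.979), AT1G13990 (0.974), AT5G65220 (0.969), AT4G20300 (0.965) and AT4G22490 (0.959). All 5 were higher with sucrose, by log2 differences of 0.72 to 2.45, and AT4G20300, at 0.93, came nearest to the 0.90 of PIFI. For NdhS they were AT1G16080 (0.862), AT5G52810 (0.843), AT3G07790 (0.815), AT4G24840 (0.797) and AT4G04370 (0.787), all lower with sucrose, by -0.39 to -1.36. With the values as deposited AT1G16080 and AT5G52810 stayed at 0.944 and 0.918 with NdhS, whereas AT3G07790 turned to -0.596 and AT4G04370 to -0.070.

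Deviations from the group means, which leave out the difference between the groups, named again AT5G52810 (r = 0.859) and AT1G16080 (0.829) for NdhS, followed by AT1G11820 (0.772), which turned to -0.398 with median centring. AT1G16080 and AT5G52810 were therefore near NdhS by both measures after quantile normalization. With the values as deposited, the correlations of their deviations were lower, at 0.722 and 0.627. Both genes fell, by 0.91 and by 0.83 on the log2 scale after quantile normalization (limma adjusted p = 9.5e-04 and 2e-04). For PIFI the highest were AT2G26680 (0.853), AT2G04700 (0.786) and AT3G47980 (0.777, but 0.436 with median centring). None of these 3 was among the 5 nearest to PIFI over the array values, and AT2G26680 and AT2G04700 were lower with sucrose, by -0.97 and -1.12. The arrays on which PIFI was high or low within a group thus matched those of 2 genes that moved against it between the groups.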

How the data were processed

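The authors deposited 1 intensity per probe and array, on a linear scale with exact zeros, none below 0 and a top of 100. Scanning, background correction and scaling are not given in the sources used here. The values themselves decided the unit. The number of arrays limits the precision. Genes were named from GEO's platform annotation, which can be old (692 of 3439 probes with 1 gene, 870 with several, 1877 not listed), and symbols updated by gene ID from RefSeq's TAIR10.1 table, which held 690 of the 692. The build behind the probes is not given, so no coordinates are printed.

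Arrays were scaled to a common median, floored at 0.0531, log2-transformed and quantile normalized, then fitted with limma 3.58.1 in R 4.3.3. P-values were adjusted by Benjamini-Hochberg over the 3439 probes, with calls at 0.05. Within-array ratios used median-scaled, floored values and exact permutation tests over arrays. The fit was tested on simulated data with independent arrays, so that test does not cover arrays that resemble each other by number. The 3 genes, the gene lists and the tests were chosen with earlier results of these data known. Genes named beyond the 3 were those of the lists with a probe of their own and, for PIFI and NdhS, the 5 highest correlations of array values and the 3 highest of deviations. The percentile, the ratio to photosystem genes and sign-flip tests within array numbers were added after seeing the data.

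Same-numbered arrays of both groups deviated together from their group means (correlations across probes of 0.19 to 0.43 for the 6 numbers), which exceeds 0.1 for each number, and a shared number was therefore treated as a pair in a second fit with the replicate number as a block. Arrays with consecutive numbers also resembled each other, which the labels do not explain. The fit with number pairs as a random block estimated a correlation of 0.46 within a pair. Alternatives were other scalings, floors and filters, the block, array weights, a variance trend, number pairs averaged, as a random block or alone, and leaving out each array.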

Additional observations from a re-analysis of the deposited data

Results flagged for a closer look

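In 20 sets of 6 arrays, a gene or ratio in 1 group each, an array was set apart where its gap to the nearest other exceeded 0.625 of the whole range, which chance gives for about 1 set in 20. There were 3. CRR21 had a normalized log2 value of -1.76 on water array 4, whereas the rest of the water arrays lay between -0.83 and -0.65 (a gap of 0.839). The log2 ratio of NdhS to the 4 photosystem genes was -1.15 on sucrose array 6, against -0.77 to -0.64 (0.735), and without that array the difference between the groups was -0.47. The place of NdhS among the probes was the 96.9 percentile on sucrose array 6, against 97.3 to 97.6 (0.625, just past the limit), and without that array its difference was -0.30 points (exact permutation test, p = 0.0628). These last 2 sets share the NdhS probe.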

How the results depend on the processing

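PIFI was higher under every alternative run, at 0.85 to 0.96 with any 1 array left out, and lost the call only within numbers 3 and 4 (0.97). The replicate block changed neither its call (adjusted p = 3.1e-04) nor that of NdhS (0.098), and among the listed genes tested changed only that of CRR21. With exact sign flips within numbers, the place of NdhS among the probes lost its call (p = 0.125), and the other 5 exact tests stood at the smallest p possible, 0.0312 (adjusted 0.0375). NdhS gained a call at -1.60 with median centring, -0.50 as deposited, -0.26 with cyclic loess, -0.31 within numbers 3 and 4 and -0.46 without numbers 1 and 2, and also without water array 1 or 2. It reversed to 0.059 within numbers 1 and 2, where its place among the probes reversed to 0.073 points. With 1 array left out NdhS lay between -0.34 and -0.22. NdhN was at the floor under each floored setting, and no value came from leaving out the dimmest probes. The 1436 called probes became 730 with number pairs averaged, 748 within numbers 3 and 4 and 691 within 5 and 6. With median centring PSAN turned to -0.90, PSBW to -1.05 and LHB1B2 to -1.18, and the correlation of AT1G11820 with NdhS to -0.398. As deposited CRR21 turned to 0.55, Cpn60beta4 to 0.96, PSBY to 0.014, LHB1B2 to -0.089, AT4G02580 to 0.72, and the correlations of AT3G07790 and AT4G04370 with NdhS to -0.596 and -0.070. Within number pairs the signs turned for Cpn60beta4 (0.019 in 1 and 2, 0.37 in 3 and 4), PSAN (-0.024) and LHB1B2 (-0.12) in 3 and 4, PSBY (0.056) in 5 and 6, and AT4G02580 (0.084 in 3 and 4, 0.49 in 5 and 6, 0.29 without 1 and 2). With 1 array left out Cpn60beta4 ran from -0.29 to 0.045 and AT4G02580 from -0.65 to 0.068. The causes were not tested. With number pairs averaged, an exact test of 3 against 3 cannot give a p under 0.10, and within a number pair 0.33.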

Other observations

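Of 18 genes listed for mitochondrial complex I, the respiratory relative of the NDH complex, 2 had a probe of their own. AT5G47890 was called lower with sucrose, at -0.99 ± 0.13 (log2, SE, limma adjusted p = 1.8e-04) after quantile normalization, but at -0.13 with the values as deposited (adjusted p = 0.29). AT4G02580 differed by -0.36 ± 0.55 (adjusted p = 0.68), and its sign turned without sucrose array 2, to 0.068. None of the 6 type II NAD(P)H dehydrogenases, the 16 genes of the PGR5 pathway, electron carriers and state transitions, or the 10 root, seed and flower markers listed had a probe of its own, and 1 of these 16 lay on a shared probe.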
